A study of Homo sapiens with 40 samples.

Results

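IL6, IL10 and EBI3 encode secreted cytokine chains whose receptors act through STAT proteins, and their RNA was followed on all 40 arrays of a study of lymphoma cell lines. The probes were those with exactly 1 gene symbol where that symbol is IL6, IL10 or EBI3. This gave 10 of 15246 probes, 5 for IL6, 4 for IL10 and 1 for EBI3, and 3 of 4604 named genes.

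The study addressed how NF-kB and STAT3 signalling act together in diffuse large B cell lymphoma. OCI-Ly3 and OCI-Ly10, its 2 human lines, are established lymphoma lines and models of the activated B cell-like subgroup. Each spotted 2-colour array compared treated cells, labelled with Cy5, with control cells of the same line, labelled with Cy3, and no array had the dyes swapped. All values below are log2 ratios of treated over control cells, with base 2 assumed because the base is not given in the sources used here.

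NF-kB was blocked by an inducible IkB super-repressor, a form of IkB alpha that resists degradation, switched on with doxycycline at 20 ng/ml. In OCI-Ly3 carrying the construct this was followed at 1, 1.5, 2, 3, 4 and 6 h (9 arrays), and in OCI-Ly10 carrying it at 1.5, 3, 6 and 24 h (4 arrays). The controls of both courses carried the construct without doxycycline. OCI-Ly3 cells received IL-10 at 50 ng/ml for 1, 3, 6, 24, 48 or 96 h (10 arrays), with untreated cells as controls. OCI-Ly10 cells received IL-6 at 50 ng/ml for 0.5, 1, 3, 6 or 24 h (8 arrays), also against untreated cells. OCI-Ly10 cells were electroporated with STAT3 siRNA SMARTpool at 4 uM for 8, 24 or 48 h (5 arrays), against cells electroporated without siRNA. JAK inhibitor I at 5 uM was given to OCI-Ly10 for 3 or 6 h (4 arrays), against untreated cells. Neither a control siRNA nor doxycycline given to cells lacking the construct is among these arrays, and JAK inhibitor I had untreated cells as its control. Effects of these agents as such therefore cannot be told apart from those of the intended target. The labels do not say whether the inducible lines were single clones or whether replicates came from separate cultures, and the p-values therefore cover the spread between these arrays, which may be technical.

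IL-6 binds its receptor together with the shared chain gp130 and activates JAK kinases and STAT3, while IL-10 does so through IL10RA and IL10RB. EBI3 is the beta chain of the heterodimeric cytokines IL-27 and IL-35, and was named for its induction by Epstein-Barr virus in B cells. In the activated B cell-like form of this lymphoma, IL-6 and IL-10 made by the tumour cells are known to act back on the same cells, and NF-kB is a known activator of IL6 transcription. NF-kB binds a short kappaB site in DNA, STAT dimers bind palindromes of the form TTCNNNGAA, and AP-1 binds TGANTCA.

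The promoters are shown because the experiments acted on NF-kB and STAT3. Each covers 250 bases before to 50 bases after the transcription start and comes from RefSeq (GRCh38.p14), which matched all 3 genes. IL6 lies at chr7:22726950-22727249 on the plus strand, IL10 at chr1:206772445-206772744 on the minus strand and EBI3 at chr19:4229273-4229572 on the plus strand. For IL10 the window belongs to the outermost of 3 listed starts. All run 5′ to 3′, and capitals mark matches to the kappaB consensus or to TGANTCA.
IL6 promoter: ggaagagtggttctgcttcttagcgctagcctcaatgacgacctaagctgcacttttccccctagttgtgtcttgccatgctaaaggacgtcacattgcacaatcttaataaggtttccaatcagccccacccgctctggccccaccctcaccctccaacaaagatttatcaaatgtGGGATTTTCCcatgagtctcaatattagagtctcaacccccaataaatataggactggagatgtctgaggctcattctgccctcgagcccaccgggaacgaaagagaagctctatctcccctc
IL10 promoter: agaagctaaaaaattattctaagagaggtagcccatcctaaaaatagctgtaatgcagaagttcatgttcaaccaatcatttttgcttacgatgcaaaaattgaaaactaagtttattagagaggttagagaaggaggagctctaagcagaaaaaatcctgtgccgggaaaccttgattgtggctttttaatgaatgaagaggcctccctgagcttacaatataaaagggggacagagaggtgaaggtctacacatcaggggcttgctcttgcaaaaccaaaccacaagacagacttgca
EBI3 promoter: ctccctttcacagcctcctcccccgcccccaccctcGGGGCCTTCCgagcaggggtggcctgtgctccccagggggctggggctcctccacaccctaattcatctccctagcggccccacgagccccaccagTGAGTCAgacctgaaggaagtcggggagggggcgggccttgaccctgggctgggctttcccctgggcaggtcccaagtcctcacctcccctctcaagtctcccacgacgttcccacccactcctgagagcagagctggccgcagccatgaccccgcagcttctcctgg
Both strands were searched for the kappaB consensus, TTCNNNGAA and TGANTCA, and no 2 matches overlapped. The IL6 window held 1 kappaB match, GGGATTTTCC, at -73 to -64 from the start. The EBI3 window held 1 kappaB match, GGGGCCTTCC, at -214 to -205 and 1 TGANTCA match, TGAGTCA, at -118 to -112. None of the 3 patterns was found in these letters of the IL10 window. Among 35116 promoters of the same length, 11.3% held the kappaB consensus, 7.66% TTCNNNGAA and 7.71% TGANTCA. A match is a run of letters and not a measured site.

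Between 8862 and 14947 probes had a value on an array, and 12.6% of all values were blank. The siRNA lowered its target, with STAT3 at -1.59 ± 0.17 over 24 and 48 h (SE, limma adjusted p = 6.4e-05, below 0 on 4 of 4 arrays). NFKBIA, an NF-kB target that encodes IkB alpha, was at -1.61 (adjusted p = 1.21e-08) under the super-repressor in OCI-Ly3 and at -1.03 (adjusted p = 0.00269) in OCI-Ly10, although its probes may also detect the introduced construct. A ratio of a line to itself holds no level, so the B cell identity of the lines could not be checked from marker levels. Markers of B cells (5 of 6 on the array), T and NK cells (6 of 6) and monocytes (3 of 6) could only be read as ratios. Of 14 such genes, the IL-10 experiment, where 16.1% of all genes were called higher and 19.2% lower, gave 3 called higher (the monocyte marker CD14 at 0.60, CD22 at 0.20 and CD3E at 0.17) and 2 called lower (CD79A at -0.34 and FCGR3A at -0.28). PAX5 was called lower under the super-repressor in OCI-Ly3 and CD79B higher under JAK inhibitor I, and none of those tested was called in the other experiments. Their part in the results below was not tested. The arrays measured bulk RNA, in which fewer expressing cells and less RNA per cell cannot be told apart.

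The probes of a gene were compared before they were averaged. IL6 probes 16736_1, 24750_1, 28748_1 and 35059_1 had values on 31 to 37 of 40 arrays and correlated with each other at 0.833 to 0.936 across the arrays they shared. IL6 probe 25209_1 had a value on 21 arrays, stayed between -0.56 and 0.15 there, and correlated with the others at 0.274 to 0.462. It was blank on 9 of the 10 IL-10 arrays, where the other IL6 probes reached 1.71 to 2.06, so its range and correlations leave those arrays out. IL10 probes 30423_1 and 35029_1 had values on 40 and 39 arrays and correlated at 0.945. IL10 probe 25232_1 (26 arrays) correlated with these at 0.752 and 0.747, and IL10 probe 25231_1 (12 arrays) at 0.725 and 0.724. EBI3 rested on probe 28467_1 alone, with values on 34 arrays. These correlations are descriptions across arrays that share treatments.

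**Figure D1:**
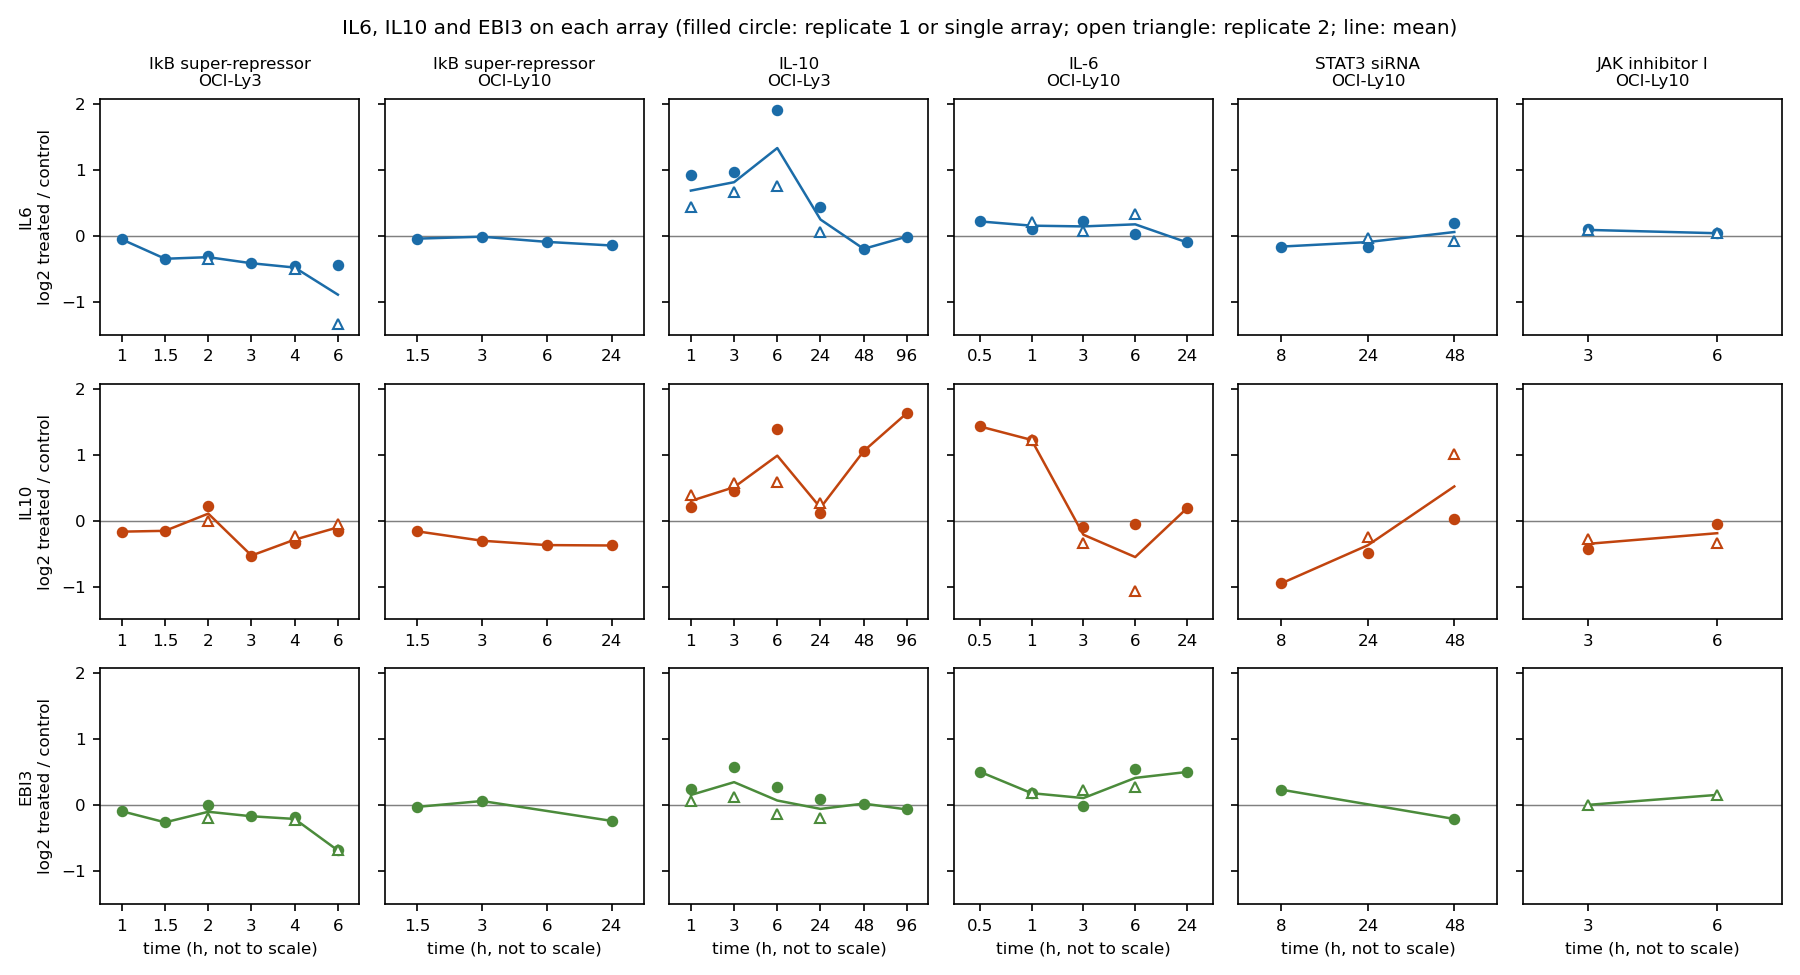
Log2 ratio of treated over control cells (vertical axis) of IL6, IL10 and EBI3 on each array, by hours of treatment (horizontal axis, evenly spaced and not to scale) in the 6 experiments. Filled circles are replicate 1 or the single array, open triangles replicate 2 and lines the means. In means over probes IL6 was highest at 6 h of IL-10, and IL10 at 96 h of IL-10 and 0.5 h of IL-6. EBI3 stayed between -0.68 and 0.58.

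Under the super-repressor in OCI-Ly3, IL6 RNA was lower than in control cells. IL6 was at -0.05 at 1 h and -0.35 at 1.5 h. It was at -0.30 and -0.35 in the replicates of 2 h, at -0.41 at 3 h, at -0.46 and -0.50 at 4 h, and at -0.45 and -1.33 at 6 h. All 9 arrays were below 0, and replicate 2 of 6 h lay far below the other 8. Over 2 to 6 h, the tested window, which leaves out 1 and 1.5 h, IL6 averaged -0.53 ± 0.12 (SE, limma adjusted p = 0.00675, below 0 on 7 of 7 arrays). In that comparison 14% of 4390 genes were called in either direction and 4.87% were called lower. IL6 ranked 30 from the lowest. Leaving out 1 array at a time gave -0.64 to -0.42 (highest adjusted p = 0.027). Array identifiers in the labels formed 12 runs of close numbers, and with the run as a random block the value was -0.51 and the call was lost (adjusted p = 0.0585). At 6 h alone IL6 was called lower (-0.89, adjusted p = 0.0266, 2.09% of genes called), but without replicate 2 the value was -0.45 (adjusted p = 0.762), and the call was also lost with medians over probes (adjusted p = 0.0523) and on these 9 arrays alone (adjusted p = 0.0957). The later times minus the first, 4 and 6 h minus 1 and 1.5 h, gave -0.48 ± 0.25 (SE, adjusted p = 1), where 0.474% of 4431 genes were called. Leaving out replicate 1 of 6 h moved this difference to -0.71, and leaving out replicate 2 moved it to -0.26.

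The 5 IL6 probes were all below 0 in this window, to different degrees. Probe 28748_1 was at -0.80 (adjusted p = 0.00041), 35059_1 at -0.61 (adjusted p = 0.0264) and 16736_1 at -0.52 (adjusted p = 0.0141), and these were called in the fit over single probes. Probe 25209_1 was at -0.33 (adjusted p = 0.0526) and 24750_1 at -0.27 (adjusted p = 0.136), which missed the threshold. On replicate 2 of 6 h the 4 probes with a value ranged from -1.79 to -0.89, and on replicate 1 the 5 probes ranged from -1.08 to -0.03. Probe 35059_1 was at -0.03 on replicate 1 and at -1.56 on replicate 2.

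IL6 stayed near 0 when the same construct was induced in OCI-Ly10. Its values were -0.04, -0.01, -0.09 and -0.15 at 1.5, 3, 6 and 24 h, with 1 array each and 5 probes on every array. The mean over 3 to 24 h was -0.08 ± 0.17 (SE, adjusted p = 0.998, below 0 on 3 of 3 arrays), in a comparison with 0.532% of 4515 genes called. The difference between the lines at 1.5, 3 and 6 h, OCI-Ly3 minus OCI-Ly10, was -0.50 ± 0.23 (SE, adjusted p = 0.994, unadjusted p = 0.0409). No gene was called in that comparison (0% of 4384; 108 had an unadjusted limma p under 0.05), so a difference between the lines was not shown for IL6.

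IL-10 raised IL6 RNA in OCI-Ly3 within the first hours. IL6 was at 0.93 and 0.44 at 1 h, at 0.96 and 0.66 at 3 h and at 1.91 and 0.75 at 6 h, replicate 1 first in each pair. It was at 0.44 and 0.06 at 24 h, at -0.20 at 48 h and at -0.01 at 96 h. The 6 arrays of the first 6 h all lay above the highest of the 4 later ones, if by little at its lower end, and replicate 1 lay above replicate 2 at each of the 4 times with both. Averaged over 1 to 96 h, IL6 was at 0.48 ± 0.10 (SE, adjusted p = 0.000916, above 0 on 8 of 10 arrays). In that comparison 35.3% of 4383 genes were called and 16.1% were called higher, and IL6 ranked 130 from the highest. Without both 6 h arrays, an alternative added after the values were seen, the mean was 0.31 and stayed called (adjusted p = 0.00972).

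By time, IL6 was called higher at 3 h (0.81 ± 0.21 SE, adjusted p = 0.0302, 3.69% of genes called) and at 6 h (1.33 ± 0.21 SE, adjusted p = 0.000329, 6.79% of genes called). At 3 h the call was lost without either replicate (0.66 and 0.96), with arrays scaled to equal spread (0.72) and in a fit of the IL-10 arrays alone (adjusted p up to 0.455). At 6 h the value was 0.75 without replicate 1 (adjusted p = 0.0568) and 1.91 without replicate 2, and the IL-10 arrays alone gave an adjusted p of 0.0655. The late times minus the early ones, 24, 48 and 96 h minus 1, 3 and 6 h, gave -0.93 ± 0.19 (SE, adjusted p = 0.00277), with 13.5% of 4409 genes called. IL6 probes 16736_1, 24750_1, 28748_1 and 35059_1 gave -0.96, -0.97, -0.91 and -0.92 for this difference, and each was called. Fitted on the IL-10 arrays alone the difference kept its value but not its call (adjusted p = 0.0858). The arrays of 48 and 96 h lay in a run of identifiers apart from those of the other times. Time and run therefore cannot be told apart for those arrays.

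IL-6 itself left IL6 RNA near control in OCI-Ly10. IL6 was at 0.22 at 0.5 h, at 0.10 and 0.21 at 1 h, at 0.22 and 0.07 at 3 h, at 0.02 and 0.32 at 6 h and at -0.10 at 24 h. The window of 1 to 24 h gave 0.09 ± 0.12 (SE, adjusted p = 0.689), where 4.54% of 3301 genes were called (150, or 314 with the replicate number as a block). IL6 probe 16736_1 was blank on all 8 arrays of this experiment, and at 0.5 h only probe 24750_1 had a value. On replicate 1 of 6 h only probes 24750_1 (0.26) and 25209_1 (-0.22) had values. On replicate 2 of 6 h probe 35059_1 was at 1.09 and the other probes with a value lay between -0.04 and 0.18. At 1, 3, 6 and 24 h, IL6 under IL-10 in OCI-Ly3 exceeded IL6 under IL-6 in OCI-Ly10 by 0.68 ± 0.16 (SE, adjusted p = 0.00898), in a comparison where 9.49% of 3687 genes were called (350, or 542 with the block). With the run as a random block this difference was 0.67 and was not called (adjusted p = 0.0693). The cytokine and the line differed together in this comparison, so their effects cannot be told apart.

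STAT3 siRNA and JAK inhibitor I left the mean of the IL6 probes close to control, farther than 0.19 from 0 on no array. Single IL6 probes ranged from -0.67 to 0.48 under the siRNA and from -0.31 to 0.37 under the inhibitor. Under the siRNA IL6 was at -0.16 at 8 h, at -0.16 and -0.03 at 24 h and at 0.19 and -0.07 at 48 h. Under the inhibitor it was at 0.10 and 0.08 at 3 h and at 0.04 on both arrays of 6 h. The tested means were -0.02 ± 0.15 (SE, adjusted p = 0.961) for the siRNA at 24 and 48 h and 0.06 ± 0.15 (SE, adjusted p = 0.906) for the inhibitor. There 3.31% of 4346 and 3.26% of 4480 genes were called.

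**Figure D2:**
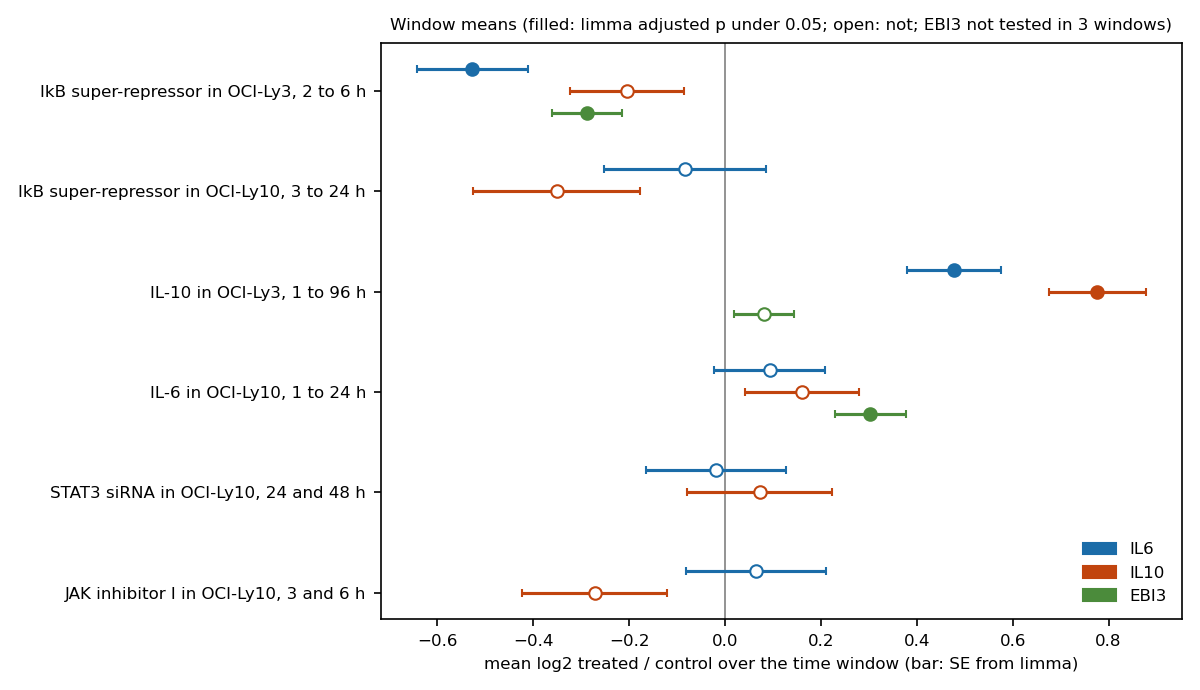
Mean log2 ratio of treated over control cells (horizontal axis) of IL6, IL10 and EBI3 over the tested window of each experiment (rows), with the SE from limma as bars. Filled points passed the adjusted p threshold of 0.05 and open points did not; IL6 lay at -0.53 under the super-repressor in OCI-Ly3 and at 0.48 under IL-10, where IL10 lay at 0.78.

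IL10 RNA rose in OCI-Ly3 given IL-10. IL10 was at 0.21 and 0.39 at 1 h, at 0.45 and 0.56 at 3 h and at 1.38 and 0.58 at 6 h. It was at 0.12 and 0.27 at 24 h, at 1.05 at 48 h and at 1.63 at 96 h. All 10 arrays were above 0. In the mean over probes the 24 h arrays were among the lowest and the 96 h array was the highest. That order depended on which probes had a value. Probes 30423_1 and 35029_1 were at 2.00 and 1.91 on replicate 1 of 6 h and at 1.74 and 1.52 at 96 h. Probe 25232_1 was at 0.24 on that 6 h array and blank at 96 h. The window mean was 0.78 ± 0.10 (SE, adjusted p = 7.49e-06), and IL10 ranked 52 from the highest of 4383 genes. Leaving out 1 array at a time gave 0.61 to 0.84 (highest adjusted p = 0.000268). The arrays read the cells' own IL10 transcript and not the added protein.

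By time, IL10 was called higher at 6 h (0.98 ± 0.21 SE, adjusted p = 0.00727), 48 h (1.05 ± 0.30 SE, adjusted p = 0.0444) and 96 h (1.63 ± 0.30 SE, adjusted p = 0.000921). Of all genes, 6.12% were called at 48 h and 14.7% at 96 h, each with 1 array whose spread was taken from the other groups. Both arrays lay in a run of identifiers apart from the other IL-10 arrays, so time and run cannot be told apart there. The 48 h call was lost in 5 of 10 alternatives (0.86 to 1.05, adjusted p up to 0.192), and neither measured probe was called then (adjusted p = 0.0812 for 30423_1 and 0.249 for 35029_1). With arrays scaled to equal spread the 96 h value was 1.04 and not called (adjusted p = 0.0791), while both probes were called at 96 h as fitted. The 6 h call was lost with that scaling (0.76, adjusted p = 0.108), in a fit of the IL-10 arrays alone (adjusted p = 0.0551) and without replicate 1 of 6 h (0.58, adjusted p = 0.195). The late times exceeded the early ones by 0.36 ± 0.20 (SE, adjusted p = 0.287), so a difference between early and late was not shown for IL10. It was 0.03 without the 96 h array and up to 0.50 without another array, and IL10 probe 35029_1 gave -0.01.

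The IL10 probes did not move alike under IL-10. Probes 30423_1 and 35029_1 averaged 0.94 and 0.86 over the window, and both were called. Probe 25232_1 stayed between -0.18 and 0.25 on its 6 arrays and was blank at 48 and 96 h, so the mean of IL10 at the late times rested on fewer probes than at the early ones. With only probes that had a value on 75% of all arrays, an alternative added after the values were seen, the window mean was 0.90 ± 0.12 (SE) and stayed called.

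**Figure D3:**
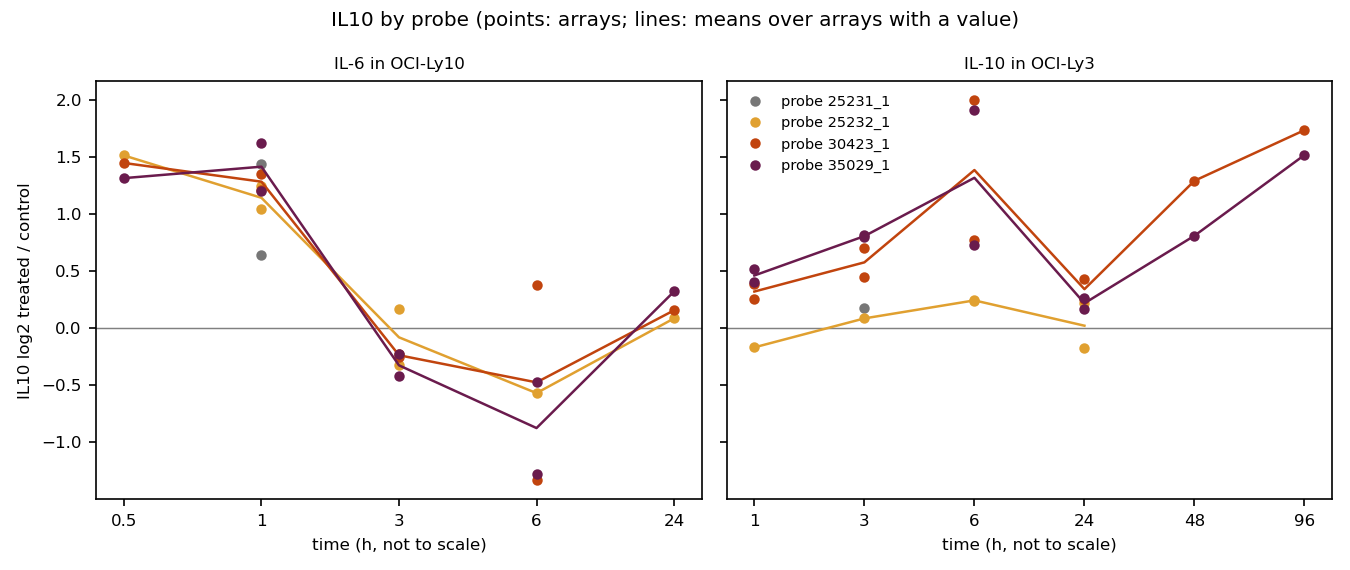
Log2 ratio of treated over control cells (vertical axis) for each IL10 probe by hours of treatment (horizontal axis, not to scale) with IL-6 in OCI-Ly10 (left) and IL-10 in OCI-Ly3 (right). Points are arrays and lines are means over arrays with a value; all 4 probes lay at or above 0.64 at 1 h of IL-6, while probe 25232_1 stayed within 0.25 of 0 under IL-10.

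IL-6 in OCI-Ly10 gave an early and brief rise of IL10 RNA. IL10 was at 1.43 at 0.5 h (1 array) and at 1.22 and 1.23 at 1 h. It was at -0.10 and -0.33 at 3 h, at -0.05 and -1.06 at 6 h and at 0.19 at 24 h. On replicate 1 of 6 h only probes 30423_1 (0.38) and 35029_1 (-0.47) had values, and on replicate 2 these were at -1.33 and -1.28. The 3 early arrays lay at or above 1.22 and the 5 later ones at or below 0.19, and the replicates of 6 h lay further apart than those of any other time of this experiment. At 0.5 h the call rested on 1 array (adjusted p = 0.0255, 1.16% of genes called). It was lost in 3 of 10 alternatives (adjusted p up to 0.128), and of 3 IL10 probes 25232_1 was called but 30423_1 (adjusted p = 0.134) and 35029_1 (adjusted p = 0.106) were not. At 1 h probes 25232_1 and 35029_1 were called in the fit over single probes. Probes 30423_1 (adjusted p = 0.065) and 25231_1 (adjusted p = 0.144) were not, and 25231_1 was at 0.64 on replicate 1 and 1.44 on replicate 2. The mean of IL10 at 1 h was 1.22 ± 0.21 (SE, adjusted p = 0.00852, 0.754% of genes called). The 1 h call was lost with either replicate left out (1.22 and 1.23, adjusted p = 0.134 and 0.102) and in a fit of the IL-6 arrays alone (adjusted p = 0.163).

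The early times minus the late ones, 0.5 and 1 h minus 3, 6 and 24 h, gave 1.52 ± 0.23 for IL10 (SE, adjusted p = 0.00185). This was the highest of 3239 genes, of which 0.432% were called (14, or 25 with the replicate number as a block). IL10 probes 25232_1, 30423_1 and 35029_1 gave 1.52, 1.55 and 1.66, and all 3 were called. Leaving out 1 array at a time gave 1.35 to 1.71 (highest adjusted p = 0.0168), while a fit of the IL-6 arrays alone gave the same value with an adjusted p of 0.114. The mean over 1 to 24 h was 0.16 ± 0.12 (SE, adjusted p = 0.46), a window that joins values on both sides of 0. IL10 under IL-10 in OCI-Ly3 minus IL10 under IL-6 in OCI-Ly10 was 0.33 ± 0.16 over the shared times (SE, adjusted p = 0.21). It moved to 0.21 to 0.46 without 1 array, 0.51 with medians over probes and -0.07 without both 6 h arrays of IL-10, and it was called under none of these.

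IL10 was not called under the super-repressor in either line. In OCI-Ly3 it was at -0.17 at 1 h and -0.16 at 1.5 h. It was at 0.22 and -0.01 at 2 h, at -0.53 at 3 h, at -0.34 and -0.23 at 4 h and at -0.16 and -0.05 at 6 h. The window mean was -0.20 ± 0.12 (SE, adjusted p = 0.251, below 0 on 6 of 7 arrays). IL10 probe 25232_1 stayed between -0.04 and 0.24 on its 7 arrays of this course, and 30423_1 between -0.33 and -0.04 on all 9. At 3 h probes 25231_1, 30423_1 and 35029_1 were at -0.84, -0.28 and -0.47, and 25232_1 was blank. In OCI-Ly10 IL10 was at -0.16, -0.31, -0.37 and -0.38 at 1.5, 3, 6 and 24 h, which gave -0.35 ± 0.17 over 3 to 24 h (SE, adjusted p = 0.797, below 0 on 3 of 3 arrays). There probes 30423_1 and 35029_1 were at -0.60 and -0.57, and 25231_1 and 25232_1 at -0.11 and -0.13, none of them called. The difference between the lines was 0.02 ± 0.24 (SE, adjusted p = 0.998).

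STAT3 siRNA gave IL10 values on both sides of 0. IL10 was at -0.95 at 8 h (adjusted p = 0.0745, 1 array) and at -0.50 and -0.25 at 24 h. It was at 0.02 and 1.02 at 48 h, where the replicates lay apart by more than the mean of 0.52 (adjusted p = 0.185). Over 24 and 48 h the mean was 0.07 ± 0.15 (SE, adjusted p = 0.83). Only probes 30423_1 and 35029_1 had values in this experiment. Under JAK inhibitor I all 4 arrays were below 0, at -0.42 and -0.28 at 3 h and at -0.04 and -0.34 at 6 h. The mean of -0.27 ± 0.15 did not pass (SE, adjusted p = 0.394). JAK inhibitor I minus IL-6, both in OCI-Ly10 at 3 and 6 h, gave 0.11 ± 0.21 for IL10 (SE, adjusted p = 0.897) and -0.09 ± 0.21 for IL6 (SE, adjusted p = 0.913), with 2.09% of 4068 genes called.

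**Figure D4:**
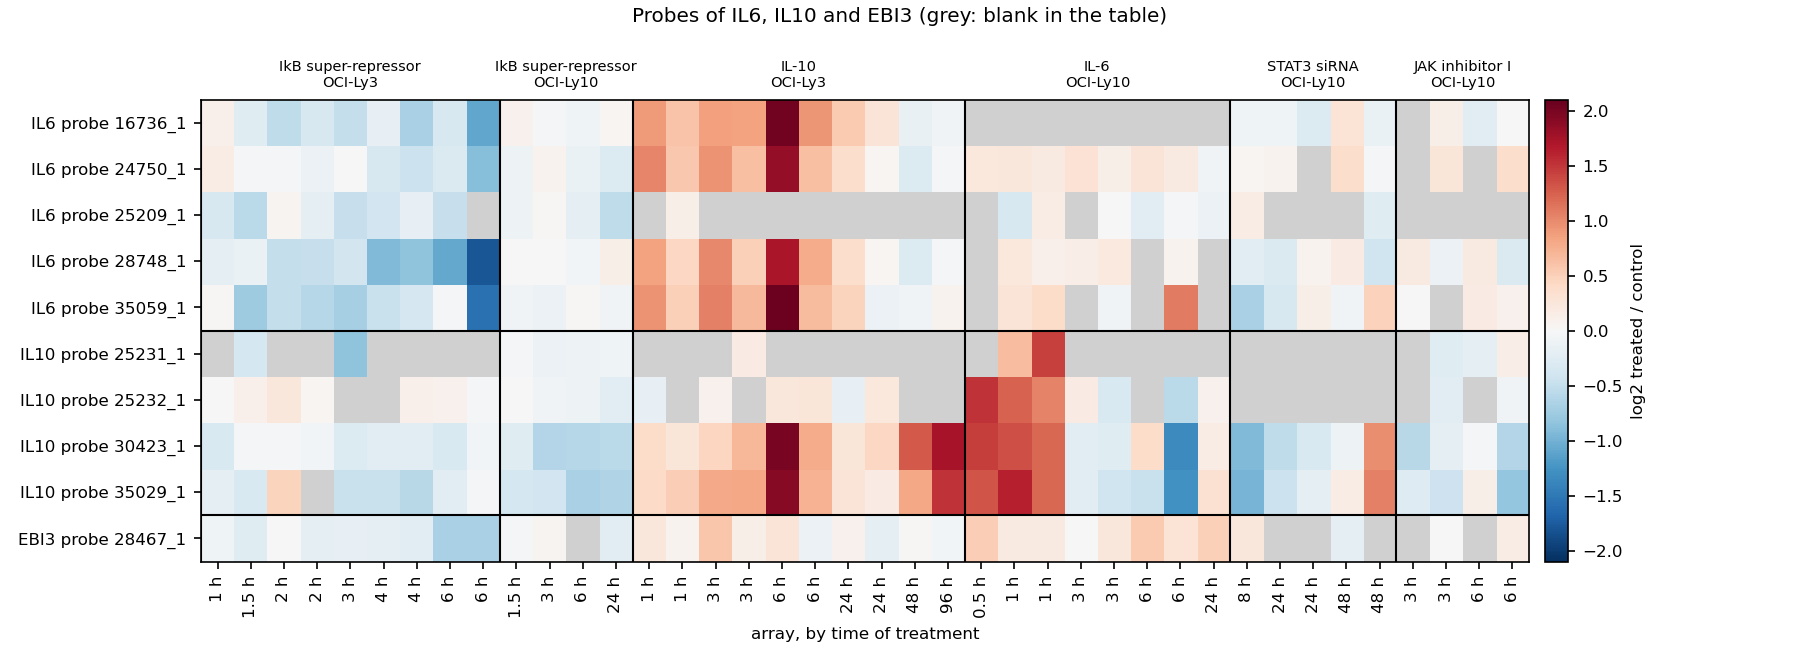
Log2 ratio of treated over control cells (colour) for each of the 10 probes (rows) on each of the 40 arrays (columns, by experiment and hours of treatment), with grey where the table was blank. IL6 probes 16736_1, 24750_1, 28748_1 and 35059_1 were highest at 6 h of IL-10 (replicate 1), and IL10 probes 30423_1 and 35029_1 were high at the same array, at 96 h of IL-10 and at 0.5 and 1 h of IL-6.

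EBI3, the beta chain, covered a narrower range of values than IL6 and IL10. Under the super-repressor in OCI-Ly3 it was at -0.09 at 1 h and -0.26 at 1.5 h. It was at 0 and -0.20 at 2 h, at -0.17 at 3 h, at -0.18 and -0.23 at 4 h and at -0.68 on both arrays of 6 h. The 6 h arrays stood below all others. The window mean was -0.29 ± 0.07 (SE, adjusted p = 0.0183, below 0 on 6 of 7 arrays). The call was lost with the run as a random block (-0.28, adjusted p = 0.0952), without replicate 1 of 6 h (-0.29, adjusted p = 0.0578), without replicate 2 of 2 h (-0.26, adjusted p = 0.0709) and without replicate 2 of 4 h (-0.28, adjusted p = 0.0613). At 6 h EBI3 was called lower (-0.68 ± 0.13 SE, adjusted p = 0.00991), and with either array left out the adjusted p was 0.215 or 0.252 at the same value.

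IL-6 in OCI-Ly10 gave EBI3 values above 0 on 7 of 8 arrays. EBI3 was at 0.51 at 0.5 h, at 0.18 on both arrays of 1 h, at -0.02 and 0.23 at 3 h, at 0.55 and 0.28 at 6 h and at 0.50 at 24 h. No single time was called. Over 1 to 24 h EBI3 was at 0.30 ± 0.07 (SE, adjusted p = 0.0259, above 0 on 6 of 7 arrays), among 3.48% of genes called higher. The call was lost with the run as a random block (adjusted p = 0.12), in a fit of the IL-6 arrays alone (adjusted p = 0.0551) and without any of 5 arrays: either array of 1 h, replicate 2 of 3 h, replicate 1 of 6 h or the 24 h array (0.24 to 0.30, adjusted p up to 0.113). In the fit over single probes, probe 28467_1 missed the threshold (adjusted p = 0.056).

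With IL-10 in OCI-Ly3, EBI3 was at 0.24 and 0.07 at 1 h, at 0.58 and 0.12 at 3 h, at 0.28 and -0.13 at 6 h and at 0.09 and -0.20 at 24 h. It was at 0.03 at 48 h and -0.06 at 96 h. The mean of 0.08 ± 0.06 did not pass (SE, adjusted p = 0.327), and replicate 1 again lay above replicate 2 at each of the 4 times with both. The difference between IL-10 in OCI-Ly3 and IL-6 in OCI-Ly10 was -0.17 ± 0.10 (SE, adjusted p = 0.315). EBI3 had too few values for a test in the other windows. It was at -0.02, 0.07 and -0.24 at 1.5, 3 and 24 h of the super-repressor in OCI-Ly10, at 0.24 and -0.21 at 8 and 48 h of the siRNA, and at 0.01 and 0.16 at 3 and 6 h of the inhibitor, each time on 1 array. JAK inhibitor I minus IL-6, tested with 2 arrays of the inhibitor blank, gave -0.18 ± 0.16 for EBI3 (SE, adjusted p = 0.722).

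Across the time-point means of all experiments IL6 and IL10 correlated at 0.392 (26 means), IL6 and EBI3 at 0.547 (24 means) and IL10 and EBI3 at 0.206 (24 means). Within the 10 IL-10 arrays the values were 0.05 for IL6 and IL10, 0.606 for IL6 and EBI3 and -0.079 for IL10 and EBI3. Within the 9 super-repressor arrays of OCI-Ly3 they were -0.064, 0.711 and 0.019, and within the 8 IL-6 arrays -0.062, -0.463 and 0.083, for the same pairs in that order. These are descriptions, since means of 1 experiment share arrays, line and control.

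The genes whose time-point means ran most like those of a member were taken from 2603 genes for IL6 and IL10. For IL6 they were FOSL2, an AP-1 factor (r = 0.815 over 25 means), CEBPD, a C/EBP transcription factor (0.803 over 23), CCND3, cyclin D3 (0.774), BMF, a BH3-only cell death protein (0.768), and STAT5A (0.767). Without the IL-10 experiment the same genes were at 0.477, -0.184, 0.45, 0.518 and 0.645. They then ranked 351, 1885, 418, 268 and 70, so their likeness to IL6 rested largely on that experiment. For IL10 they were ID2, an inhibitor of DNA binding (0.823), the kinase SGK1 (0.775), the ETS factor ETV5 (0.77), JUNB, an AP-1 factor (0.756), and SOCS1, a feedback inhibitor of JAK kinases (0.753). Without the IL-10 experiment they were at 0.772, 0.72, 0.56, 0.704 and 0.567 in that order, and ETV5 and SOCS1 ranked 83 and 73. For EBI3 they were GLYATL1P4 (0.783 over 21 means), SEC22A (0.752), PGF, placental growth factor (0.751), ZC3H3 (0.75) and the receptor NOTCH3 (0.749), out of 2550 genes. Without the IL-10 experiment these were at 0.885, 0.762, 0.777, 0.769 and 0.822.

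The receptors, kinases, STATs and feedback inhibitors of these cytokines formed a list of 21 genes, of which 19 were on the array. With IL-10 in OCI-Ly3, 7 of 18 tested were called higher and 4 lower, where 16.1% and 19.2% of all genes were, and the list median was 0.05 against -0.02 over all genes. SOCS2, a feedback inhibitor, was at 1.91, PTPN1, a tyrosine phosphatase with JAK kinases among its substrates, at 1.89 and STAT3 at 1.37, each on 10 of 10 arrays. IL10RA and IL6R are named here beside the rule for named genes, after their values were seen. IL10RA, the ligand-binding receptor of IL-10, was called lower at -0.67 (adjusted p = 5.02e-09) and IL6R, that of IL-6, at -0.19 (adjusted p = 0.00238). With IL-6 in OCI-Ly10, 3 of 15 were called higher and 1 lower, against 3.48% and 1.06% of all genes (median -0.004 against -0.009). SOCS3, the feedback inhibitor of gp130, was at 0.77, PTPN1 at 0.52 and CISH at 0.39, while IL10RA was at -0.24 (adjusted p = 0.0221).

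Under the super-repressor in OCI-Ly3, 1 of 19 pathway genes was called higher and 2 lower, against 9.16% and 4.87% of all genes (median -0.12 against -0.025 over all genes). SOCS2 was at -0.72, IL10RB at 0.26 and IL6R at -0.19. In OCI-Ly10, 0 of 19 were called in either direction, where 0.221% of all genes were called higher and 0.31% lower and limma gave 293 of 4515 genes an unadjusted p under 0.05. STAT3 siRNA gave 0 higher and 2 lower of 19 pathway genes, the targeted STAT3 and SOCS2 at -0.65, where 1.27% of all genes were called higher and 2.05% lower. JAK inhibitor I gave 1 higher, IL10RA at 0.36 (adjusted p = 0.0117), and 1 lower, STAT3 at -0.69 (adjusted p = 0.0264), where 1.09% of all genes were called higher and 2.17% lower. IL10RA was called lower with either cytokine and higher with the inhibitor. For this gene, inhibitor minus IL-6 at 3 and 6 h in OCI-Ly10 was 0.60 ± 0.11 (SE, limma adjusted p = 0.00353), where 2.09% of 4068 genes were called. IL10RA was singled out after its values on these arrays were seen, so this difference is a description and no separate test.

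Of 41 other cytokine genes 28 were on the array. Under the super-repressor in OCI-Ly3, 0 of 28 were called higher and 4 lower, against 9.16% and 4.87% of all genes (median -0.12 against -0.025 over all genes), with the inflammatory cytokine TNF at -0.82, LTA, which encodes lymphotoxin alpha, at -0.63 and IL12B at -0.47 lowest among them. With IL-10, 3 of 26 were called higher and 6 lower, shares near the 16.1% and 19.2% of all genes (median -0.03 against -0.02). TNF was at -1.54, LTA at -1.40 and IL7 at 0.28. On the same arrays IL6 and IL10 were called higher and TNF and LTA lower. IL-6 gave 0 higher and 1 lower of 21, TNF at -0.41, where 3.48% and 1.06% of all genes were called. JAK inhibitor I gave 0 higher and 1 lower of 27, IL12A, which encodes the partner of EBI3 in IL-35, at -0.39 (adjusted p = 0.0172), where 1.09% and 2.17% of all genes were. STAT3 siRNA and the super-repressor in OCI-Ly10 gave 0 of 27 and 0 of 28 by limma. There 3.31% and 0.532% of all genes were called, and 903 of 4346 and 293 of 4515 genes had an unadjusted p under 0.05.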

How the data were processed

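The 40 arrays measured RNA of treated (Cy5) against control cells (Cy3) of 2 lymphoma lines in 26 groups of experiment and time, of which 14 had 2 arrays and 12 had 1. The deposited values were taken as log2 ratios. The range of -7.868 to 5.81 does not separate base 2 from the natural base. The deposited ratios were already centred, with array medians of -0.031 to 0.011. How the authors scanned, corrected and normalized the arrays is not given in the sources used here. Without the 2 channels' own brightness, signal over background is unknown, and the number of arrays limits the precision.

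Each array was median-centred again, and probes with 1 symbol (10169) were averaged per gene. Not used were 5073 probes for which no symbol was listed and 4 that had several. With limma 3.58.1 in R 4.3.3, 1 mean per group was fitted over all 40 arrays, and time-window averages, single times and differences were tested against 0 with Benjamini-Hochberg adjustment over all genes tested (threshold 0.05). A gene was tested if 75% of the arrays of a window and each of its times had a value. The super-repressor's window was 2 to 6 h in OCI-Ly3 and 3 to 24 h in OCI-Ly10, and the others were 1 to 96 h for IL-10, 1 to 24 h for IL-6, 24 and 48 h for the siRNA, and 3 and 6 h for the inhibitor. Testing a ratio against 0 does not take in how control RNA varies, dye bias of single genes was not removed, and whether control RNA was shared is not stated in the labels. A group with 1 array takes its spread from the others. The fit was tested on simulated data with independent noise on each array, which does not cover arrays that vary together within a run.

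The members, the lists and the windows were chosen with earlier results of these data known. Named genes were the members, STAT3 and NFKBIA, up to 3 called genes with the largest means per list and experiment, and the 5 genes with the highest Pearson correlation to a member over time-point means. The correlated genes needed values in 80% of the member's means and in at least 20, and 1 mean of 0.5 or more in size.

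Replicate numbers come from the titles. The differences of replicate 2 minus 1 correlated across times at 0.393 to 0.59 for IL-10 (4 pairs) and 0.185 to 0.229 for IL-6 (3 pairs). Wherever a time had 2 arrays, replicates 1 and 2 lay in different runs of array identifiers. Pairing by replicate number and an effect of the run therefore cannot be told apart. For the super-repressor in OCI-Ly3 they ran from -0.368 to 0.336, and the siRNA (0.254) and the inhibitor (0.217) had only 2 pairs. Replicates of a group correlated across genes at -0.049 (2 h of the super-repressor in OCI-Ly3) to 0.702. Alternatives were arrays scaled to equal spread, medians over probes, other filters on blank values, blocks by replicate number or run of array identifiers, fits of single experiments, leaving out single arrays, and 2 chosen after seeing the data.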

Additional observations from a re-analysis of the deposited data

Results flagged for a closer look

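IL10 RNA in OCI-Ly10 given IL-6 differed between early and late times, in a limma test of the difference itself. The arrays of 0.5 and 1 h were at 1.43, 1.22 and 1.23, and those of 3, 6 and 24 h at -0.10, -0.33, -0.05, -1.06 and 0.19. Early minus late was 1.52 ± 0.23 (SE, limma adjusted p = 0.00185), and it was the highest value of 3239 genes, of which 0.432% were called. In a fit of the IL-6 arrays alone the call was lost.

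IL6 RNA in OCI-Ly3 given IL-10 also differed between late and early times, in a test of the same kind. The 4 arrays of 24, 48 and 96 h lay between -0.20 and 0.44, and the 6 arrays of 1, 3 and 6 h between 0.44 and 1.91. Late minus early was -0.93 ± 0.19 (SE, limma adjusted p = 0.00277), where 13.5% of genes were called. In a fit of the IL-10 arrays alone the call was lost. The arrays of 48 and 96 h lay in a run of identifiers apart from those of the other times. Time and run therefore cannot be told apart for those arrays.

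IL6 RNA differed between the cytokine experiments at their shared times of 1, 3, 6 and 24 h. IL6 under IL-10 in OCI-Ly3 exceeded IL6 under IL-6 in OCI-Ly10 by 0.68 ± 0.16 (SE, limma adjusted p = 0.00898), where 9.49% of genes were called. With the run as a random block the call was lost. The cytokine and the line changed together, so their parts cannot be told apart. No cause was tested for any of these differences.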

How the results depend on the processing

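Over windows and differences, IL6, IL10 and EBI3 gave 573 values under the alternatives. Of these, 558 kept their side of the threshold, 15 lost a call, 0 gained one and 0 called values reversed, while 14 uncalled values changed sign. Calls at single times were also lost under some settings, as given beside each time above. With the run of array identifiers as a random block (consensus correlation 0.2687), calls were lost for IL6 (-0.51) and EBI3 (-0.28) under the super-repressor in OCI-Ly3, for EBI3 under IL-6 (0.30) and for IL6 under IL-10 minus IL-6 (0.67). The cause was not tested. In fits of the compared experiments alone, which hold fewer arrays, calls were lost for EBI3 under IL-6 (0.30), for IL10 early minus late under IL-6 (1.52) and for IL6 late minus early under IL-10 (-0.93). Leaving out 1 array at a time gave EBI3 -0.33 to -0.26 under the super-repressor in OCI-Ly3 and 0.24 to 0.34 under IL-6, with some calls lost. The replicate block changed no call of these 3 genes.

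Numbers of genes called moved more, and the cause was not tested. With the super-repressor induced in OCI-Ly3 the count was 616, against 1105 with the replicate block, 103 with the run, 368 alone and 269 to 957 without 1 array. In OCI-Ly10 it was 24, against 238 with arrays scaled to equal spread, 39 with the replicate block, 5 with the run and 1 to 17 without 1 array. There 41.7% of calls were higher, and 52.1% after scaling. For IL-6 it was 150, against 455 scaled, 314 with the replicate block, 32 with the run, 71 alone and 93 to 147 without 1 array, and 76.7% of calls were higher, or 61.8% after scaling. For IL-10 it was 1548, and 1031 alone. For the siRNA it was 144, against 83 scaled, 417 with the replicate block, 48 with the run and 21 to 106 without 1 array. Alone, limma called 0 genes there, and 619 of 4346 had an unadjusted p under 0.05. For JAK inhibitor I it was 146, against 232 scaled, 260 with the replicate block, 77 with the run, 12 alone and 44 to 160 without 1 array.

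Among differences, IL-6 early minus late gave 14 genes, against 35 scaled, 25 with the replicate block, 40 with the run and 10 to 24 without 1 array. IL-10 late minus early gave 594, against 296 scaled, 226 alone and 306 to 602 without 1 array. The super-repressor in OCI-Ly3, late minus early, gave 21, against 37 with the run and 6 to 17 without 1 array. Alone, limma called 0 there, and 155 of 4431 had an unadjusted p under 0.05. Between the lines it gave 0, and 2 after scaling. IL-10 minus IL-6 gave 350, against 231 where every array needed a value, 542 with the replicate block, 103 with the run, 209 alone, 223 without both 6 h arrays of IL-10 and 197 to 428 without 1 array. JAK inhibitor I minus IL-6 gave 85, against 208 scaled, 160 with the replicate block, 48 with the run and 41 to 80 without 1 array.

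The super-repressor in OCI-Ly10 had no replicates, so no fit of it alone was possible. EBI3 had no value for JAK inhibitor I minus IL-6 under 3 settings. Blank values left EBI3 untested in 3 windows, and 3301 genes were tested for IL-6 against 4346 to 4515 in the windows of the other experiments.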
